A study of Mus musculus with 3 samples.

Results

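The dendritic cells described here were the 238 of 12668 annotated mouse brain immune cells that carried one of 4 labels, DC1, DC2, DC3 or DC4, in the column of labels assigned with scANVI. All cells with such a label were kept, in every library and whatever name the other deposited annotations gave them. They comprised 87 DC1, 65 DC2, 55 DC3 and 31 DC4 cells. Each cell's RNA molecules were counted as unique molecular identifiers (UMIs) by droplet single-cell RNA sequencing on the 10x Genomics Chromium.

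Tissue was taken from the right hemisphere, the side into which cells had been injected, as tumor or as normal tissue of like size, and CD45-positive cells were isolated from it by positive selection. There was 1 library without tumor (NT, labelled age 0 to 2 weeks), 1 from low grade gliomas (LGG, 3 to 4 weeks) and 1 labelled HGG (6 to 8 weeks), with 3544, 5024 and 4100 cells. The last is grouped by its library name, which says HGG, although its title mentions no tumor. The labels give no strain, genotype or number of animals per library, nor whether weeks run from birth or from injection, nor whether the NT tissue had been injected. Age, library and tumor group therefore coincide and cannot be told apart. No test between groups exists, and every difference below is one between 3 libraries.

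Dendritic cells take up antigen and present it to T cells. Conventional type 1 cells, which express Xcr1 and Clec9a, specialise in presenting antigen from other cells to CD8 T cells, conventional type 2 cells, which can express Cd209a, mainly prime CD4 T cells, and plasmacytoid cells are known for type I interferon. Dendritic cells that gain Ccr7 migrate to lymph nodes, and in the healthy brain most dendritic cells lie in the meninges and choroid plexus rather than among the neurons. The analysed table holds values per cell and none per gene, so that Flt3, Xcr1, Clec9a, Cd209a and Ccr7 could not be checked in these cells. The labels were compared with the other deposited annotations instead, which read the RNA of the same cells and are therefore no independent evidence.

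The first of the deposited SingleR annotations gives each cell a main and a fine name after the most similar profile of a reference. The fine name was dendritic for 188 of the 238 cells (79.0%, exact 95% interval 73.3 to 84.0%). The main name was DC for 154 (64.7%), which were 55 DC1, 25 DC2, 45 DC3 and 29 DC4 cells. Another 27 DC2 cells had macrophages and 11 had monocytes as main name. Names of this annotation are fine names below unless called main. Each label had its own leading group of names. Among DC1 cells, 38 of 87 carried a name that states CD103+ or CD8+, the surface proteins by which mouse conventional type 1 cells are often sorted. Other DC1 cells had a CD103- CD11b+ name (14), a CD8- name (12) or no dendritic name (19). Plasmacytoid names were counted as a group of their own, although 1 of them, DC.PDC.8+, also states CD8+ and was given to 24 DC4, 3 DC1 and 1 DC2 cells. None of the 65 DC2 cells had a name of the CD103+ or CD8+ group, and 37 carried CD103- CD11b+ names, which describe type 2 cells. In DC3, 34 of 55 cells had a CD8- name, 26 of them the single name DC.8-4-11B+. That name also states CD11b+, as the leading names of DC2 do, so CD11b does not set these groups of names apart. DC4 was the most uniform label, with plasmacytoid names in 30 of 31 cells.

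Read from the names to the labels, 38 of the 42 cells of the whole table with a CD103+ or CD8+ name were DC1 (90.5%), whereas 37 of the 80 cells with a CD103- CD11b+ name were DC2 (46.3%). Of the 50 cells with a plasmacytoid name, 30 were DC4 and 14 had no DC label. DC3 held 34 of the 54 cells with a CD8- name (63.0%). Most cells with a CD103+ or CD8+ name were thus DC1, while the cells with a CD103- CD11b+ name included 23 without any DC label.

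Leading names were given more often in HGG than in LGG for DC1 and DC2, with overlapping intervals. In DC1, a CD103+ or CD8+ name was found in 12 of 17 HGG cells (70.6%, 44.0 to 89.7%) and in 26 of 67 LGG cells (38.8%, 27.1 to 51.5%), a ratio of 1.82 (1.18 to 2.80). In DC2, a CD103- CD11b+ name was found in 12 of 15 HGG cells (80.0%, 51.9 to 95.7%) and in 21 of 45 LGG cells (46.7%, 31.7 to 62.1%), a ratio of 1.71 (1.15 to 2.56). DC3 ran the other way, with a CD8- name in 6 of 13 HGG cells (46.2%, 19.2 to 74.9%) and in 28 of 42 LGG cells (66.7%, 50.5 to 80.4%), which is 0.692 times as often (0.371 to 1.29). Intervals of the shares overlap in all 3 labels, while those of the ratios leave out 1 for DC1 and DC2 and hold it for DC3.

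**Figure D1:**
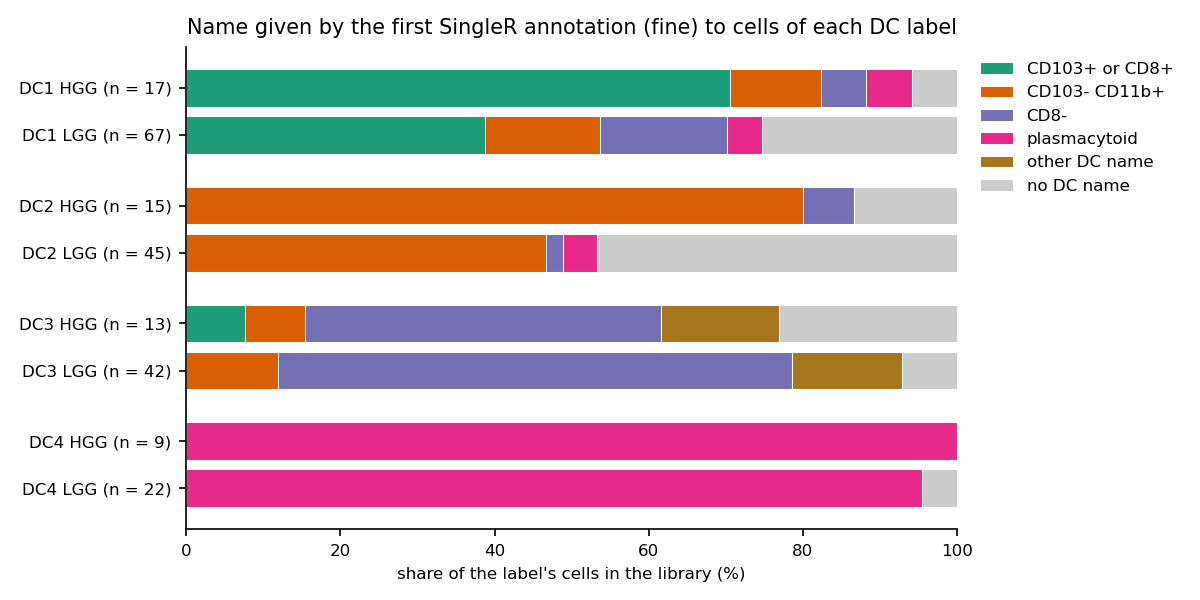
Share of the cells of each DC label (horizontal axis, percent) by the group of names given in the first SingleR annotation, with HGG above LGG for each label and n the number of cells. DC4 bars are nearly all plasmacytoid, and the CD103+ or CD8+ names fill 70.6% of the HGG bar and 38.8% of the LGG bar of DC1. NT is not drawn, since it had 3 DC1 and 5 DC2 cells.

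Other annotations placed the labels unevenly. A second set of names with the same 4 DC classes (VHove2019) gave the same number to 52 of 87 DC1, 38 of 65 DC2, 46 of 55 DC3 and 31 of 31 DC4 cells. A later-numbered version of it (VHove2019_v2) named 66 DC1, 49 DC2 and 47 DC3 cells cDC, but only 1 DC4 cell, and called 27 of the 31 DC4 cells B cells. The main names of the second SingleR annotation called 22 of the 31 DC4 cells B cells and 140 of all 238 cells monocytes. Only 1 of the 238 was dendritic by these names. Neither column holds a plasmacytoid name for any cell of the table. Of 4 annotation columns (the main names of the first SingleR annotation, VHove2019, VHove2019_v2 and a further column of fine names), at least 1 called 219 of the 238 cells dendritic and at least 2 called 186. The 19 cells that none of the 4 called dendritic were 12 DC1, 5 DC2, 2 DC3 and no DC4 cells. By itself the further column of fine names called 80 of the 238 dendritic and 90 monocytes. The second SingleR annotation was not among the 4, nor was a marker-list annotation (SCSA) that called 1 of the 238 dendritic.

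The classes of the deposited column Cell_type, called final classes here, have no dendritic class. In them, 194 of the 238 cells (81.5%) lay in the class named Int Mo/Mac. They made up 4 of 125 Int Mo/Mac cells in NT (3.20%, 0.879 to 7.99%), 142 of 474 in LGG (30.0%, 25.9 to 34.3%) and 48 of 360 in HGG (13.3%, 10.0 to 17.3%). All 31 DC4 cells were in this class, with 64 DC1, 52 DC2 and 47 DC3 cells. The next largest group was 24 cells in the B cell class, of which 14 were DC1, 9 DC2 and 1 DC3. By the main names of the first SingleR annotation, 12 of these 24 were dendritic and 9 B cells. The VHove2019 names called 14 of the 24 B cells and 8 dendritic. A different column, final_celltype, has no class Int Mo/Mac for these cells. It placed 172 of the 238 in Macrophage Cluster 1, 28 in T cells and 24 in B cells.

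The main deposited clusters of DC3 and DC4 differed from the one that DC1 and DC2 shared, but held other cells as well. At the finest of 22 resolutions, with 53 clusters, all 31 DC4 cells shared a cluster of 62 cells, and 43 of 55 DC3 cells shared one of 54 cells. The DC4 cluster also held 3 DC1 and 2 DC2 cells, and DC3 cells were found in 8 clusters. DC1 and DC2 had the same main cluster, of 210 cells, which held 47 DC1 cells, 43 DC2 cells and 98 TAM 1 cells (a macrophage label of the scANVI column). The 26 cells of the DC4 cluster without a DC label included 12 T cells and 7 TAM 2 cells by scANVI, and 13 of the 26 were doublet calls. Clusters were built from the same cells' genes and are given as a description.

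Dendritic cells were most frequent in LGG. They made up 0.226% of the cells in NT (8 of 3544, exact 95% interval 0.0975 to 0.444%), 3.5% in LGG (176 of 5024, 3.01 to 4.05%) and 1.32% in HGG (54 of 4100, 0.991 to 1.72%). All intervals here and below cover counting error only, not differences between animals. The share in LGG was 15.5 times that in NT (7.65 to 31.5), and the share in HGG was 0.376 of that in LGG (0.278 to 0.509) and 5.83 times that in NT (2.78 to 12.2). These 3 intervals of the shares lay apart. In these libraries, the order from low to high was therefore NT, HGG, LGG.

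Below, a label counts as higher or lower when its shares differ by 1.5 times or more and their exact intervals lie apart. All 4 DC labels were called higher in LGG than in NT, a call that was lost under 2 other settings for DC1, 3 for DC2, 1 for DC3 and 3 for DC4. Of the 10 scANVI labels with at least 20 cells, 60.0% were called higher in this comparison, which is the 4 DC labels and 2 of the other 6 (T cells and TAM 1). DC1 stood at 1.33% in LGG (67 cells) and 0.0847% in NT (3 cells), a ratio of 15.8 (4.96 to 50.0). DC2 stood at 0.896% in LGG (45 cells) and 0.141% in NT (5 cells), a ratio of 6.35 (2.52 to 16.0). No DC3 or DC4 cell was found among the 3544 NT cells. A count of 0 leaves room for shares of up to 0.0847% there, 3 counts of the library, and its exact 95% interval reaches 0.104%. With 42 DC3 and 22 DC4 cells in LGG (0.836% and 0.438%), DC3 was at least 9.88-fold higher and DC4 at least 5.17-fold higher in LGG than this limit, before the counting error of the LGG share.

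Between the 2 tumor libraries, DC1, DC2 and DC3 were called lower in HGG than in LGG and DC4 was not. Of the 10 labels, 50.0% were called lower, the other 2 being T cells and TAM 1. DC1 was 0.415% in HGG (17 cells) and 1.33% in LGG, a ratio of 0.311 (0.183 to 0.529). DC2 was 0.366% in HGG (15 cells) and 0.896% in LGG, a ratio of 0.408 (0.228 to 0.732), and DC3 was 0.317% (13 cells) and 0.836%, a ratio of 0.379 (0.204 to 0.706). DC4 was 0.220% in HGG (9 cells) and 0.438% in LGG, a ratio of 0.501 (0.231 to 1.09). The intervals of the 4 ratios overlap one another. The call was lost under 8 other settings for DC2, 4 for DC3 and 3 for DC1.

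Against NT, DC3 was called higher in HGG, at least 3.75-fold, and the other 3 labels were not. Of the 10 labels, 20.0% were called higher in this comparison, DC3 and T cells. The ratio of HGG to NT was 4.90 for DC1 (1.44 to 16.7) and 2.59 for DC2 (0.943 to 7.13), and DC4 was at least 2.59-fold higher with overlapping intervals of the shares. These ratios rest on 3 DC1 and 5 DC2 cells in NT. DC1 came to be called higher in HGG under 7 of the other settings, among them the limit to cells that 2 of 4 annotations called dendritic (ratio 6.48, 1.48 to 28.3).

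**Figure D2:**
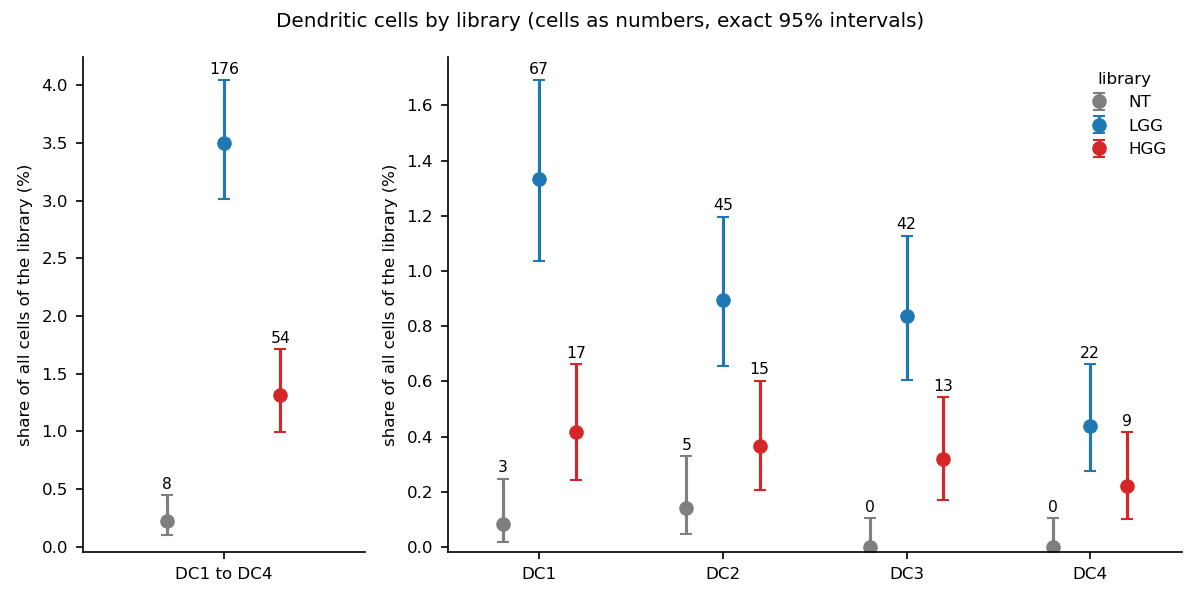
Share of all cells of the library (vertical axis, percent) for DC1 to DC4 together on the left and for each label on the right, in NT, LGG and HGG. Points are shares, bars exact 95% intervals and numbers the cells. LGG has the highest point for every label, and the NT points for DC3 and DC4 are at 0.

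The 8 NT cells were a mixed group. They were 3 DC1 and 5 DC2 cells with 2813 to 34553 UMIs, none a doublet call, and 6 of them had a CD103- CD11b+ name. By the main names of the first SingleR annotation only 2 of the 8 were DC and 4 were macrophages. The VHove2019 names called 4 of the 8 DC2 and 2 TAM 1. By final class 4 were Int Mo/Mac, 3 T cells and 1 B cells. The 1 in the B cell class, a DC1 cell with 2813 UMIs, was a B cell by the first SingleR annotation as well. At least 2 of 4 annotations called 4 of the 8 cells dendritic in NT, 135 of 176 in LGG and 47 of 54 in HGG. Every ratio to NT rests on these 8 cells.

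The mix of labels among dendritic cells differed between the tumor libraries by less than the counting error. DC1 made up 31.5% of the dendritic cells in HGG (19.5 to 45.6%) and 38.1% in LGG (30.9 to 45.7%), and DC2 27.8% in HGG and 25.6% in LGG. DC3 made up 24.1% in HGG and 23.9% in LGG, and DC4 16.7% in HGG (7.92 to 29.3%) and 12.5% in LGG (8.00 to 18.3%). The ratio of HGG to LGG ran from 0.827 for DC1 (0.535 to 1.28) to 1.33 for DC4 (0.654 to 2.72). A change in the mix by less than these bounds was not detectable with 54 HGG cells. In LGG the order of the labels varied with the cells kept: without the top 5% by UMIs, DC3 was 30.6% and DC1 27.6% of the dendritic cells, and in the common range of UMIs described below DC1, DC3 and DC4 were 26.2% each and DC2 21.4%.

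The lower share in HGG depended on which other cells were counted. Among cells other than microglia, dendritic cells were 3.05% in HGG and 6.94% in LGG, a ratio of 0.439 (0.326 to 0.592), and among myeloid cells the ratio was 0.349 (0.257 to 0.474). After leaving out the 2 most abundant labels of the column, TAM 1 and TAM 2, dendritic cells were 31.6% of the remaining cells in HGG (54 of 171) and 22.8% in LGG (176 of 772), a ratio of 1.39 (1.07 to 1.79), which is higher rather than lower and under the limit of 1.5. In that count the direction was turned for all 4 labels, and none of the 4 was called higher in LGG than in NT, though all of them together were, at 22.8% in LGG and 9.09% in NT (ratio 2.51, 1.28 to 4.92). Relative to T cells, there were 75 dendritic cells per 100 T cells in HGG and 35.2 in LGG, a ratio of 2.13 (1.44 to 3.15). Relative to monocytes, there were 300.0 per 100 in HGG and 409.3 in LGG, a ratio of 0.733 (0.391 to 1.37). Relative to the macrophage labels the numbers were lower in HGG, with ratios of 0.301 per TAM 2 cell (0.221 to 0.410) and 0.576 per TAM 1 cell (0.416 to 0.798). Relative to B cells, there were 360.0 per 100 in HGG and 475.7 in LGG, a ratio of 0.757 (0.386 to 1.48). T cells were 72 of the 171 cells other than TAM in HGG and 500 of the 772 in LGG. Of all cells they were 1.76% and 9.95%. In these counts the direction was thus turned among cells other than TAM and relative to T cells. It was not turned relative to monocytes, B cells or the macrophage labels.

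The 4 labels were alike relative to T cells. For each of them the number per 100 T cells was higher in HGG than in LGG, with 23.6 and 13.4 for DC1, 20.8 and 9.0 for DC2, 18.1 and 8.40 for DC3, and 12.5 and 4.40 for DC4. The ratio was smallest for DC1, at 1.76 with an interval that holds 1 (0.980 to 3.17), and largest for DC4, at 2.84 (1.26 to 6.41). Per 100 T cells, LGG and NT were close, with 35.2 and 29.6 dendritic cells and a ratio of 1.19 (0.530 to 2.66). The numbers relative to T cells therefore showed no detectable difference between LGG and NT, while those relative to all cells did.

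Dendritic cells were deeper than the other cells of their libraries. The median dendritic cell had 16394 UMIs in NT, 20580 in LGG and 16492 in HGG, against 8817, 9747 and 12828 UMIs in all other cells of the same libraries. DC1 and DC2 were the deepest labels, with medians of 25027 and 22986 UMIs, and DC3 and DC4 had 14281 and 13999. Dendritic cells therefore held 0.449%, 6.39% and 1.53% of all UMIs of NT, LGG and HGG, above their share of cells in each library.

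The size of the gap between the tumor libraries moved with depth in both directions. Within the range of 2985 to 14346 UMIs common to the libraries, the ratio of HGG to LGG was 0.870 (0.508 to 1.49), from 19 HGG and 42 LGG cells, so that the call was lost. That range leaves out 134 of the 176 LGG cells. With all cells kept and compared within 10 strata of UMIs, chosen after the data were seen, the ratio was 0.282 (0.213 to 0.374). Of the cells above 25040 UMIs, the deepest stratum, 9 of 770 in HGG (1.17%) and 62 of 434 in LGG (14.3%) were dendritic. The order was turned in 2 strata of few dendritic cells, with 5 of 249 HGG cells (2.01%) and 3 of 500 LGG cells (0.60%) between 8430 and 9793 UMIs, and 2 of 191 HGG cells (1.05%) and 3 of 532 LGG cells (0.564%) between 9794 and 11414. The 3 deepest strata, from 13752 UMIs, held 33 of the 54 HGG and 124 of the 176 LGG dendritic cells. The shallowest stratum, up to 2712 UMIs, held 4 of them in HGG and 16 in LGG. What part depth had in the result was not tested beyond these values.

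**Figure D3:**
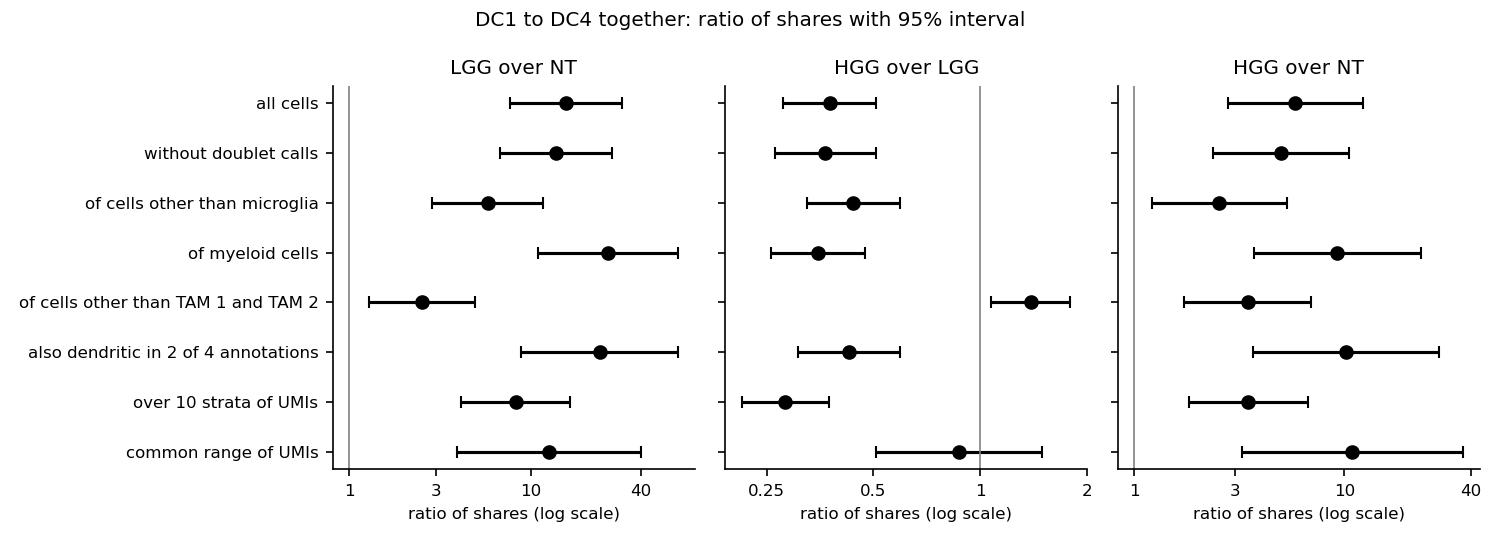
Ratio of the share of DC1 to DC4 together (horizontal axis, log scale) between each pair of libraries under 8 ways of counting, with 95% intervals. LGG over NT and HGG over NT lie above 1 in all 8, while HGG over LGG passes to 1.39 without TAM 1 and TAM 2 and its interval holds 1 in the common range of UMIs.

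The DC3 label held both deep and shallow cells. Of its 55 cells, 15 had fewer than 1000 detected genes (a limit set after the data were seen), with 711 to 3463 UMIs and a median of 1755, against a median of 19129 in the other 40. Such shallow cells were 3 of 13 DC3 cells in HGG and 12 of 42 in LGG, so that neither library held them alone. They had a median mitochondrial share of 0.169%, against 2.79% in the deeper DC3 cells, with 11 of the 15 under 1% and the highest at 6.50%. By the main names of the first SingleR annotation 14 of the 15 were dendritic. DC1 had 10 such cells of 87, 9 of them in LGG, and DC2 and DC4 had none. Shallow cells were not particular to DC3 and DC1. The lower quartile of genes per cell was 742.5 in TAM 1 and 984.5 in monocytes, against 798.5 in DC3. Without cells under 500 genes the ratio of HGG to LGG for all dendritic cells was 0.365, and without cells under 1000 UMIs it was 0.375.

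DC4 had the highest median mitochondrial share of the 4 labels. It was 5.24% of UMIs in HGG and 6.20% in LGG, and no DC4 cell was below 3.75%. The other labels had medians of 3.13% (DC1), 3.37% (DC2) and 2.45% (DC3) over all libraries, against 5.59% in DC4 and 5.41% in the cells that scANVI called B cells. A limit of 5% mitochondrial UMIs would leave 3 of 9 DC4 cells in HGG and 7 of 22 in LGG, which takes DC4 to 6.82% of the dendritic cells in HGG and 5.04% in LGG, and its higher share in LGG than in NT is then no longer called (at least 1.86-fold).

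**Figure D4:**
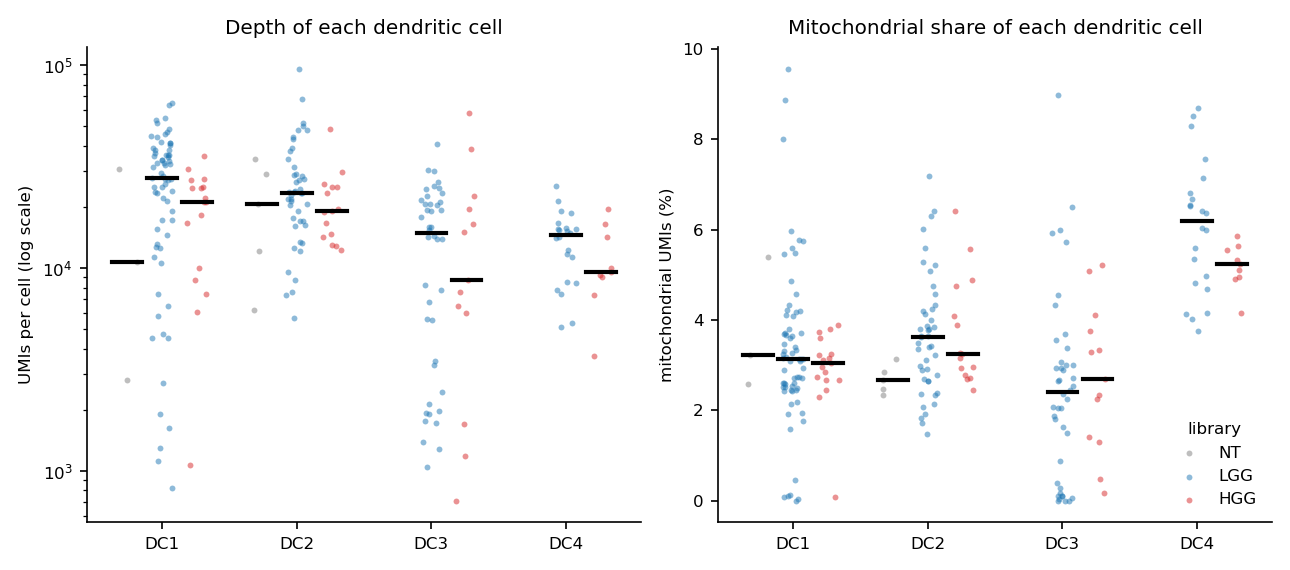
UMIs per cell on a log axis (left) and percent mitochondrial UMIs (right) of each of the 238 dendritic cells by label and library, with black lines for medians. The 15 shallow DC3 cells lie between 711 and 3463 UMIs, 11 of them under 1% mitochondrial UMIs, and the DC4 cells lie at 3.75% or above.

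Doublet calls, deposited by the authors, were more frequent among dendritic cells than among all other cells together, with 31 of 238 (13.0%, 9.02 to 18.0%) against 408 of 12430 other cells (3.28%, 2.98 to 3.61%). The scANVI T cells alone had 91 of 599 (15.2%, 12.4 to 18.3%) and the B cells 6 of 72 (8.33%, 3.12 to 17.3%). Among dendritic cells they were 9 of 87 DC1, 13 of 65 DC2, 2 of 55 DC3 and 7 of 31 DC4 cells. By library they were 0 of 8 dendritic cells in NT, 23 of 176 in LGG (13.1%) and 8 of 54 in HGG (14.8%). Called cells had a median of 33020 UMIs and the rest 17242. Without doublet calls the ratio for all dendritic cells was 0.366 for HGG over LGG and 13.7 for LGG over NT, but DC2 was no longer called lower in HGG than in LGG (0.417, 0.217 to 0.802, 12 and 35 cells).

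A small group of DC1 and DC2 cells had high scores for S or G2M genes, the genes of DNA synthesis and of the phase before and during cell division. The deposited phase was G2M for 74 of 238 dendritic cells (31.1%, 25.3 to 37.4%) and for 1355 of 12430 other cells (10.9%). In this table G1 was given wherever both scores were below 0, so that a score just above 0 sufficed for S or G2M, and T cells (36.4%) and monocytes (45.8%) by scANVI had as large or larger G2M shares. The median G2M score of dendritic cells was -0.0068, and no cycling is read from phase calls alone.

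An S or G2M score of at least 0.2, a limit set after the data were seen, was reached by 21 of 87 DC1 cells (24.1%, 15.6 to 34.5%) and 11 of 65 DC2 cells (16.9%, 8.76 to 28.3%). It was reached by 0 of 55 DC3 cells, which leaves room for up to 5.45% by 3 counts (exact interval up to 6.49%), and by 0 of 31 DC4 cells, which leaves room for up to 9.68% (exact interval up to 11.2%). The interval of DC1 lies above those of DC3 and DC4, and that of DC2 above that of DC3 only. The highest score of any DC3 cell was 0.0845 and of any DC4 cell 0.0759, against 0.998 in DC1 and 0.95 in DC2. Among all other cells 3.11% reached 0.2, and among the scANVI T cells 68 of 599 did (11.4%, 8.92 to 14.2%). By library the 32 cells were 0 of 8 in NT, 28 of 176 in LGG (15.9%, 10.8 to 22.2%) and 4 of 54 in HGG (7.41%, 2.06 to 17.9%), and the intervals of the tumor libraries overlap.

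Depth and doublets moved with these scores. The 32 cells had a median of 33296 UMIs against 17570 in the other dendritic cells, and 13 of them were doublet calls. Without doublet calls, 14 of 78 DC1 cells (17.9%) and 5 of 52 DC2 cells (9.62%) still reached 0.2. Among cells with at least 15000 UMIs it was 17 of 62 DC1 (16.9 to 40.2%), 10 of 49 DC2 (10.2 to 34.3%), 0 of 26 DC3 (up to 13.2%) and 0 of 12 DC4 cells (up to 26.5%). In the common range of UMIs it was 2 of 16 DC1, 1 of 15 DC2, 0 of 15 DC3 and 0 of 18 DC4 cells, with overlapping intervals, so that no difference between the labels was detectable there. By final class 27 of the 32 were Int Mo/Mac, and the VHove2019 names called 11 of them prol. TAM. Whether free RNA or a second cell in the droplet raised the scores was not tested, since that needs values per gene.

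**Figure D5:**
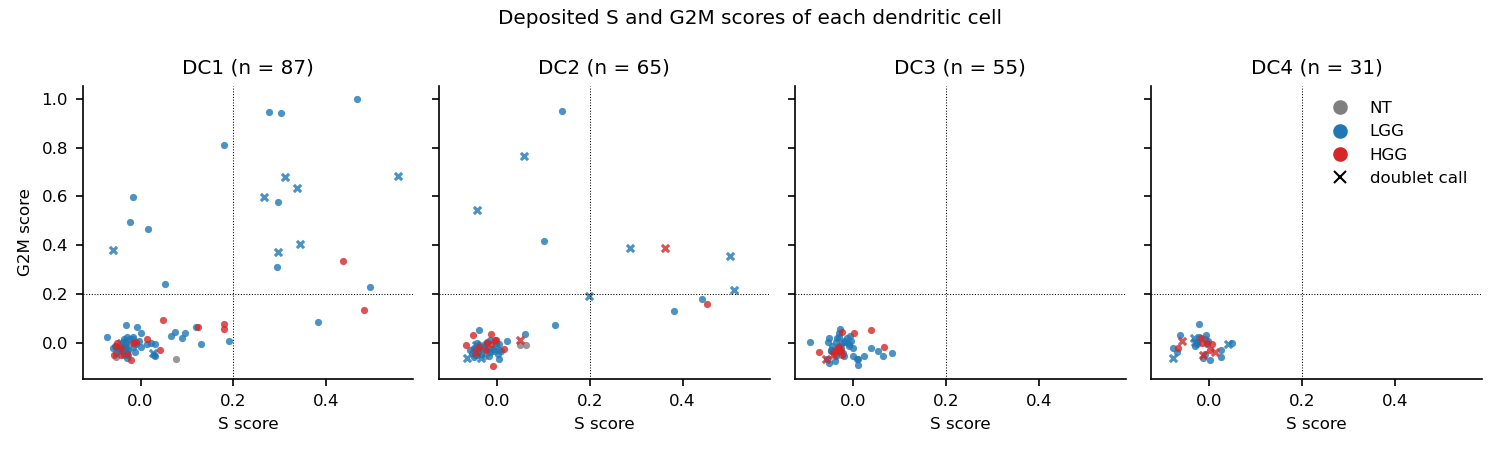
Deposited S score (horizontal axis) and G2M score (vertical axis) of each dendritic cell by label, colored by library, with crosses for doublet calls and dotted lines at 0.2. Cells beyond 0.2 on either axis are 21 DC1 and 11 DC2 cells, mostly from LGG, and all DC3 and DC4 cells lie near 0.

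Counting by the first SingleR names instead of the labels kept the order NT, HGG, LGG for the 4 leading groups of names but changed which one differed most between the tumor libraries. Plasmacytoid names were given to 10 cells in HGG (0.244%) and 40 in LGG (0.796%), a ratio of 0.306 (0.153 to 0.612), where the DC4 label gave 0.501. CD103+ or CD8+ names were given to 14 cells in HGG and 28 in LGG, a ratio of 0.613 (0.323 to 1.16), where the DC1 label gave 0.311. The ratio was 0.278 (0.140 to 0.553) for CD8- names and 0.529 (0.321 to 0.870) for CD103- CD11b+ names. The remaining dendritic names went the other way, with 9 cells in HGG (0.22%) and 10 in LGG (0.199%), a ratio of 1.1 (0.449 to 2.71). The order of the subtypes by their ratio therefore differed between labels and names. Their intervals overlap in both, so that these counts do not settle an order. None of the CD103+ or CD8+, CD8- or plasmacytoid names was given to a cell of NT, whose 7 cells with a dendritic name were all CD103- CD11b+.

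Cell barcodes shared between libraries numbered 4 for LGG and NT, 7 for HGG and LGG and 4 for HGG and NT, and none belonged to a dendritic cell.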

How the data were processed

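The authors deposited 1 table of 12668 cells. Per the labels' protocols, Cell Ranger 3.0.2 mapped the reads to mm10 and counted UMIs. The submitters' processing notes also name Seurat 4. Each cell has, per the file headers, a deposited count of UMIs and of detected genes, the percent of mitochondrial and ribosomal UMIs, an S and a G2M score, phase, doublet call, clusters and several annotations. The filters on cells, the scANVI reference and the gene lists of the scores were not given in the sources used here. The table held 501 UMIs and 201 genes per cell at the least and 9.97% mitochondrial UMIs at the most. Library totals were 32685080 (NT), 61554429 (LGG) and 61872213 UMIs (HGG). Of 64 columns, 55 were read and 9 not used. The planned marker and gene summaries need values per gene and were not run.

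Shares have exact Clopper-Pearson and ratios of shares Katz log intervals, both at 95% (scipy 1.17.1, pandas 2.3.3). Numbers relative to T cells, monocytes, B cells, TAM 1 or TAM 2 were compared as odds ratios of the counts with Woolf 95% intervals. With 1 library per group no p-value was computed. The ratio over strata of UMIs is a Mantel-Haenszel ratio. The call rule was tested on simulated counts. Their base shares were above those of dendritic cells in NT, so the simulation does not cover counts that low. Alternatives were filters on depth, genes, mitochondrial UMIs and doublets, other denominators, other annotations and Wilson intervals. UMIs could not be thinned to 1 depth without values per gene. The common range ran from the highest 10th to the lowest 90th percentile of UMIs of the libraries. The members and the lists of names were chosen with earlier results of these data known.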

Additional observations from a re-analysis of the deposited data

Results flagged for a closer look

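Some annotations gave dendritic names to cells that carry no DC label and that the comparisons by label above did not count as dendritic. The VHove2019_v2 names called 584 such cells cDC. Their share of all cells was 8.85 times as large in LGG as in NT (5.63 to 13.9, 251 and 20 cells) and 13.5 times as large in HGG as in NT (8.63 to 21.2, 313 and 20 cells). By final class 234 of the 584 were Microglia, 140 Int Mo/Mac and 119 Glioma associated macrophages. The main names of the first SingleR annotation called 430 of them Microglia and 6 DC.

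A marker-list annotation (SCSA) gave the name of plasmacytoid dendritic cells to 124 cells, of which 1 had a DC label and none was DC4. The 123 others were 5.59 times as frequent in LGG as in NT (3.14 to 9.94, 103 and 13 cells), and 114 of them were immature erythrocytes by final class.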

How the results depend on the processing

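For DC1 to DC4 together, LGG stayed called higher than NT under all 19 alternatives, with ratios from 2.51 to 44.8. Some of the 19 count largely other cells. Of 747 cells named cDC by VHove2019_v2, 163 had a DC label, and of 124 with the SCSA name 1 had. Wilson intervals cannot change a ratio. HGG over LGG kept its call under 16 of 19, and HGG over NT under 17 of 19. HGG over LGG was 0.870 in the common range of UMIs, 1.39 among cells other than TAM and 1.18 with dendritic cells named by VHove2019_v2. HGG over NT was 2.54 among cells other than microglia and 0.465 with SCSA names, which share 1 cell with the labels.

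By label, the common range of UMIs gave for LGG over NT 9.87 (DC1) and 4.04 (DC2), for HGG over LGG 0.699 (DC1), 0.855 (DC2), 0.699 (DC3) and 1.22 (DC4), and at least 2.30 (DC3) and 4.02 (DC4, now called) for HGG over NT, all others of these uncalled. Among cells other than TAM, chosen after the data were seen, LGG over NT was 2.55 (DC1), 1.03 (DC2), at least 1.60 (DC3) and at least 0.836 (DC4), and HGG over LGG was 1.15, 1.5, 1.4 and 1.85 for DC1 to DC4. Among cells other than microglia, LGG over NT was 2.39 (DC2) and at least 1.95 (DC4), HGG over LGG 0.472 (DC2) and 0.438 (DC3), and HGG over NT at least 1.63 (DC3), none of them called. At most 5% mitochondrial UMIs left HGG over LGG at 0.506 (DC2) and 0.428 (DC3), and LGG over NT at no less than 1.86 for DC4, all uncalled. DC2 in HGG over LGG was uncalled as well without doublet calls (0.417) and without the top 5% by UMIs (0.504, and 0.530 for DC1). The same held for DC2 with members limited to Int Mo/Mac, as a share of all cells (0.490), and with 2 of 4 annotations (0.545, added later).

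DC1 in HGG over NT came to be called with 5% mitochondrial UMIs (9.74), without the top 5% (6.91) and with another annotation (6.92). It was also called among myeloid cells (7.0) and with 2 of 4 annotations (6.48). So it was with members limited to Int Mo/Mac, as a share of all cells (13.0). Wilson intervals gave the call as well (4.90, its value unchanged), as they did for DC4 (at least 2.59). Counted by plasmacytoid names, added later, DC4 was called in HGG over LGG (0.306) and in HGG over NT (at least 2.88). DC1 and DC4 were each 26.2% of LGG dendritic cells in the common range, DC1 was 27.6% without the top 5%, and DC4 was 5.04% with 5% mitochondrial UMIs, and 6.82% in HGG with that limit. The cause of these changes was not tested. Of 298 alternatives, 249 changed no call or direction and moved no share of the mix or phase beyond its interval. No paired analysis was possible because each group is 1 library, which also leaves no replicate to omit. With 8 NT cells and no DC3 or DC4 cell among them, the number of cells limits every ratio to NT, and the interval of DC4 for HGG over LGG (0.231 to 1.09) holds the ratio of each other label.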

Other observations

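Counted by deposited cluster and not by label, the pattern over the libraries was similar in direction. The clusters hold many of the same labelled cells, so this is no separate evidence. The cluster that held all 31 DC4 cells had 1 cell in NT, 50 in LGG and 11 in HGG, with a ratio of 0.270 for HGG over LGG (0.141 to 0.517). Of its 62 cells 36 had a DC label, and of the 26 others only 13 were called singlets. The cluster that held 43 of the DC3 cells had 2, 38 and 14 cells, with a ratio of 0.451 (0.245 to 0.832). The cluster shared by DC1 and DC2 had 18, 134 and 58 cells, with a ratio of 0.530 (0.391 to 0.720), and 116 of its 210 cells had no DC label.

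The DC3 cluster held 10 cells without a DC label, with a median of 1348 UMIs against 11280 in its 44 labelled cells. In the DC4 cluster it was the cells without a DC label that were deeper, with 25902 against 14086 UMIs.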
